A study of Homo sapiens with 4 samples.

Results

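SMAD proteins carry the signal of transforming growth factor beta (TGF-beta) from its receptors to the nucleus, and a set of proteins made in response to that signal limits it. The genes described here are 10 such genes, SMAD2, SMAD3, SMAD4, SMAD6, SMAD7, SKI, SKIL, PMEPA1, SMURF1 and SMURF2. They were taken by name from the pathway, and all 10 were found in both deposited tables, which list 58051 gene identifiers. The cells were MCF10A, an immortalised line of human breast epithelium that does not form tumours, and poly(A) RNA was taken 48 h after transfection. The siLMNA group (n = 2 libraries) received 50 nM of an siRNA against LMNA, which encodes lamins A and C of the nuclear lamina. The siLacZ group (n = 2 libraries) received a control siRNA against LacZ, a bacterial gene, at the same dose, and both groups were otherwise handled alike per the labels. Lamin A/C, the methyltransferase EZH2 and epithelial-to-mesenchymal transition are named in the series title. It is not given in the sources used here whether 1 LMNA siRNA or a pool was used.

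In this pathway, ligand-bound receptors phosphorylate SMAD2 and SMAD3, which join SMAD4, enter the nucleus and bind DNA together with other factors. SMAD6 and SMAD7 are the inhibitory SMADs: SMAD7 blocks the type I receptor and brings ubiquitin ligases such as SMURF1 and SMURF2 to it, whereas SMAD6 acts mainly in the bone morphogenetic protein (BMP) branch. SKI and SKIL (SnoN) are corepressors that bind SMAD complexes on DNA, and PMEPA1 (TMEPAI) is a membrane protein that keeps SMAD2 and SMAD3 from the receptor. SMAD7, SKIL and PMEPA1 are textbook TGF-beta-induced genes, so that they form negative feedback loops. In mammary epithelial cells TGF-beta is known for growth arrest and for epithelial-to-mesenchymal transition.

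The DNA just upstream of the start sites shows where short SMAD-binding letters stand in these genes. Windows of 250 bases before each RefSeq transcript start (GRCh38.p14, the same coordinates as the hg38 build of the counts) were available for 9 of the 10 genes, 19 windows in all, with SKI not among them. The following motifs were searched on both strands: the SMAD-binding palindrome GTCTAGAC, the core of the CAGA box (CAGAC, read on the other strand as GTCTG) and a GC-rich SMAD site (GGCGC, read as GCGCC; the 2 readings overlap in GGCGCC). An AP-1 site, TGANTCA, was searched as well. The 4 windows below are those before the most upstream start of SMAD6 and SMAD7, paralogs whose fold changes are set side by side below, and of PMEPA1 and SKIL; capitals mark the SMAD motifs, and each runs 5′ to 3′ on the gene's own strand.
SMAD6, chr15:66701986-66702235, plus strand: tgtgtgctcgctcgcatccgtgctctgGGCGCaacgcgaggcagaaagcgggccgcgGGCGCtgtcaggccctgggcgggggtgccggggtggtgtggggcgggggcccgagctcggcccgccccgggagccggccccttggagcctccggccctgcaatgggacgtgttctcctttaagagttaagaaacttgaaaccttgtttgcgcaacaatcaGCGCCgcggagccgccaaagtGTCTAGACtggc
SMAD7, chr18:48950966-48951215, minus strand: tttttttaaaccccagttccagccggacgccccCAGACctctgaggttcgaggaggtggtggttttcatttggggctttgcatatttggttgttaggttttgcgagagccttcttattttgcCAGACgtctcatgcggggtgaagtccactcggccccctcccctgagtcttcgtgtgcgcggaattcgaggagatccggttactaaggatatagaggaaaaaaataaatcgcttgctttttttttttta
PMEPA1, chr20:57711473-57711722, minus strand: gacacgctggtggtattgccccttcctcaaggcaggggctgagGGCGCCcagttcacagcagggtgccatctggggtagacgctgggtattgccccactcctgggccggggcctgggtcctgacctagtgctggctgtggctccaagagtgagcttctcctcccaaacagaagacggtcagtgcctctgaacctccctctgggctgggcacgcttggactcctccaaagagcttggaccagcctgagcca
SKIL, chr3:170357465-170357714, plus strand: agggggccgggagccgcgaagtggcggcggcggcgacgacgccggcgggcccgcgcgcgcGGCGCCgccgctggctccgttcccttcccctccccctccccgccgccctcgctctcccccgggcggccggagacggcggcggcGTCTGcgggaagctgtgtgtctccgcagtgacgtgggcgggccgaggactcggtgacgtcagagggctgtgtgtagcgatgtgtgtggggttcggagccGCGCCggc

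The palindrome stood in 1 of the 19 windows, that of SMAD6, at bases -12 to -5 from the start, and in 0.182% of all 35116 RefSeq windows of the same length (64 windows). None of the 3 SMAD7 windows held it, and SMAD7 promoter DNA between and around these windows was not searched. The CAGA core was found in at least 1 window of 5 genes, SMAD3, SMAD7, SKIL, PMEPA1 and SMURF1, which makes 8 of the 19 windows, against 38% of all RefSeq windows. SMAD7 had it at bases -217 to -213 and -128 to -124 from its most upstream start. The GC-rich site was present in 8 of the 9 genes, all but SMAD7, and in 12 of the 19 windows, against 44.5% of all RefSeq windows, and the AP-1 site in 1 window, of SMAD3, against 6.57%. These matches describe letters in short windows. They do not show binding, and no DNA outside the windows was searched, be it the rest of a promoter, enhancers or introns.

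Library totals lay between 42.8 and 46.2, in units of 1e6 counts, and the members had from 415 to 35775 counts in a library. LMNA was at 480 and 524 CPM (counts per 1e6 counts of the library, scaled by TMM) in siLacZ 1 and 2 and at 61.1 and 58.1 CPM in siLMNA 1 and 2, which is 0.119 times the control level (log2 fold change -3.07, SE 0.0768; edgeR quasi-likelihood adjusted p = 2.98e-15). Since nothing in the labels states that replicates are separate cultures, each p-value below reflects the spread among these libraries alone, and that spread may be technical. In bulk RNA, fewer cells of a type and less RNA per cell cannot be told apart. All 10 members passed the filter on low counts. A gene was called at an adjusted p under 0.05 over the 18540 genes tested. Of the 10 members, 8 rose, 0 fell and 2 did not pass (5157 genes fell over the whole table, and the 2 that missed also had unadjusted p-values above 0.05; DESeq2 likewise gave 0 fallen members). Over all tested genes 54.3% were called in either direction, 26.5% higher and 27.8% lower. The members' median log2 fold change was 0.59, beside -0.01 over all tested genes. Of the members, 4 rose at least 2-fold (PMEPA1, SMAD7, SKIL and SMURF1), as did 11.3% of all tested genes, and the same 4 passed a test against a minimum change of 1.5-fold, as did 11.4% of all tested genes in that direction. The CPM of the groups did not overlap for any of the 10 members, but this was also so for 76.0% of all tested genes.

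**Figure D1:**
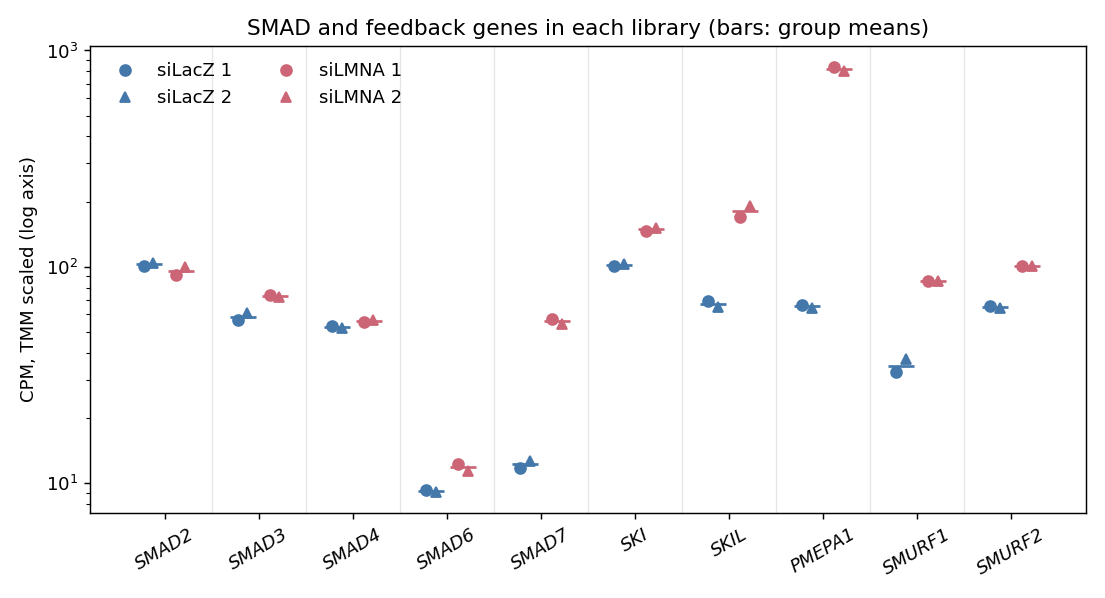
CPM of each member in each of the 4 libraries on a log axis, with siLacZ in blue, siLMNA in red, circles for library 1, triangles for library 2 and a short line at each group mean. PMEPA1 goes from about 65.4 to 822 CPM and SMAD7 from 12.2 to 55.7 CPM, while SMAD2 and SMAD4 stay near their control level.

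The receptor-regulated SMADs and their common partner changed little. SMAD2 (hg38 chr18:47808957-47931146, minus strand) was at 101 and 104 CPM in siLacZ 1 and 2 and at 91.1 and 99.3 CPM in siLMNA 1 and 2. Both siLMNA libraries lay below both controls, siLMNA 2 by less than the distance between the 2 siLMNA libraries, and the difference missed the threshold (log2 fold change -0.10 with an SE of 0.0726; edgeR adjusted p = 0.241). With library totals in place of TMM factors, it passed toward lower (-0.20, edgeR adjusted p = 0.0239). SMAD4, which joins both receptor-regulated SMADs (hg38 chr18:51028394-51085045, plus strand), had 52.9 and 52.2 CPM in the controls and at 55.6 and 56.4 CPM after LMNA siRNA (log2 fold change 0.09, SE 0.0724; edgeR adjusted p = 0.295). Its direction flipped with library totals only (-0.0038). SMAD3, which binds DNA directly (hg38 chr15:67063763-67195195, plus strand), was at 56.8 and 60.7 CPM in siLacZ and at 74.0 and 72.6 CPM in siLMNA. It rose 1.25-fold (log2 fold change 0.32, SE 0.073; edgeR adjusted p = 0.00127), a call that was lost without siLacZ 1 (adjusted p = 0.0582) and against a minimum change of 1.5-fold (adjusted p = 1.00).

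Both inhibitory SMADs rose, SMAD7 by 4.57-fold and SMAD6 by 1.28-fold. SMAD7 (ENSG00000101665; hg38 chr18:48919853-48952052, minus strand) was at 11.7 and 12.6 CPM in siLacZ 1 and 2 and at 57.1 and 54.3 CPM in siLMNA 1 and 2. The siLMNA libraries were far above the controls and close to each other, a 4.57-fold rise (log2 fold change 2.19, SE 0.0868, n = 2 per group; edgeR adjusted p = 1.22e-12). Its fold change was the 676th highest of the 18540 tested. SMAD6 (hg38 chr15:66702228-66782848, plus strand) is the gene whose window above held the palindrome. It was at 9.29 and 9.10 CPM in the controls and at 12.2 and 11.3 CPM in siLMNA. It rose 1.28-fold (log2 fold change 0.35, SE 0.116; edgeR adjusted p = 0.0159). This was the least stable call among the members: it was lost in 5 of 13 alternatives, with library totals only (adjusted p = 0.0754), without siLacZ 1 (0.0844), siLacZ 2 (0.0907) or siLMNA 1 (0.110), and against a minimum change of 1.5-fold (1.00).

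PMEPA1 had the largest change of the 10 genes. PMEPA1 (ENSG00000124225; hg38 chr20:57648392-57711536, minus strand) went from 2976 and 3037 counts, or 66.6 and 64.2 CPM, in siLacZ 1 and 2 to 35775 and 34635 counts, or 837 and 806 CPM, in siLMNA 1 and 2. That is a 12.6-fold rise (log2 fold change 3.65, SE 0.0736, n = 2 per group; edgeR adjusted p = 2.85e-16), the 210th highest of all tested genes, and the log2 CPM ratio was 3.65 in both same-numbered pairs. Over 13 alternatives its log2 fold change lay between 3.55 and 3.72, and it passed in each. NKILA, an antisense RNA gene on the opposite strand, overlaps 343 of its exonic bases (6.10%). NKILA, named for this overlap and not by the rule for named genes, had 6 and 8 counts in the controls and 348 and 335 in siLMNA (log2 fold change 5.68, SE 0.266; edgeR adjusted p = 1.03e-11). The use of strand is not given in the sources used here, so reads of the shared bases cannot be told apart. PMEPA1 had 496 and 380 counts for each NKILA count in siLacZ 1 and 2, and 103 in both siLMNA libraries.

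Both corepressors rose, SKIL by 2.68-fold and SKI by 1.47-fold. SKIL (ENSG00000136603; hg38 chr3:170357678-170396835, plus strand) measured 69.2 and 65.2 CPM in siLacZ 1 and 2 and at 169 and 191 CPM in siLMNA 1 and 2. The siLMNA libraries had an SD of 15.6 CPM around a mean of 180.0 CPM, relative to the mean the widest spread of any member in that group, but both lay well above the controls (2.68-fold; log2 fold change 1.42, SE 0.078; edgeR adjusted p = 8.53e-11). SKI (hg38 chr1:2228695-2310119, plus strand) stood at 100.3 and 102 CPM in siLacZ 1 and 2 and at 146 and 151 CPM in siLMNA, a 1.47-fold rise (log2 fold change 0.55, SE 0.069; edgeR adjusted p = 2.56e-06) that did not pass against a minimum change of 1.5-fold (adjusted p = 0.893).

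Both SMURF genes, which encode HECT-type ubiquitin ligases, rose. SMURF1 (ENSG00000198742; hg38 chr7:99027438-99144100, minus strand) was at 32.4 and 37.2 CPM in siLacZ 1 and 2 and at 85.6 and 85.4 CPM in siLMNA 1 and 2. The spread lay in the controls, and the groups were far apart (2.45-fold; log2 fold change 1.29, SE 0.0805; edgeR adjusted p = 4.34e-10). TRRAP, on the opposite strand, overlaps 735 exonic bases of SMURF1 (11.7%) and did not pass (log2 fold change -0.03, SE 0.0857). SMURF2 (hg38 chr17:64542295-64662068, minus strand) was at 65.7 and 64.2 CPM in the controls and at 101 and 100.4 CPM in siLMNA, with almost no spread within either group. Its 1.55-fold rise (log2 fold change 0.63, SE 0.0702; edgeR adjusted p = 6.64e-07) did not pass against a minimum change of 1.5-fold (adjusted p = 0.331). The pseudogene SMURF2P1 had 69 and 74 counts in the controls and 88 and 76 in siLMNA, against 2936 to 4313 for SMURF2 itself. Of the 32-base words in the longest transcript, 10.3% occur in transcripts of other genes for SMURF1 (most of them in TRRAP), 9.84% for SMAD4, 7.13% for SMURF2, 5.52% for SMAD2 and 1.55% for SKIL, so reads of these genes may have been split. For PMEPA1, SMAD7, SMAD3, SMAD6 and SKI this share was 0.0%.

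**Figure D2:**
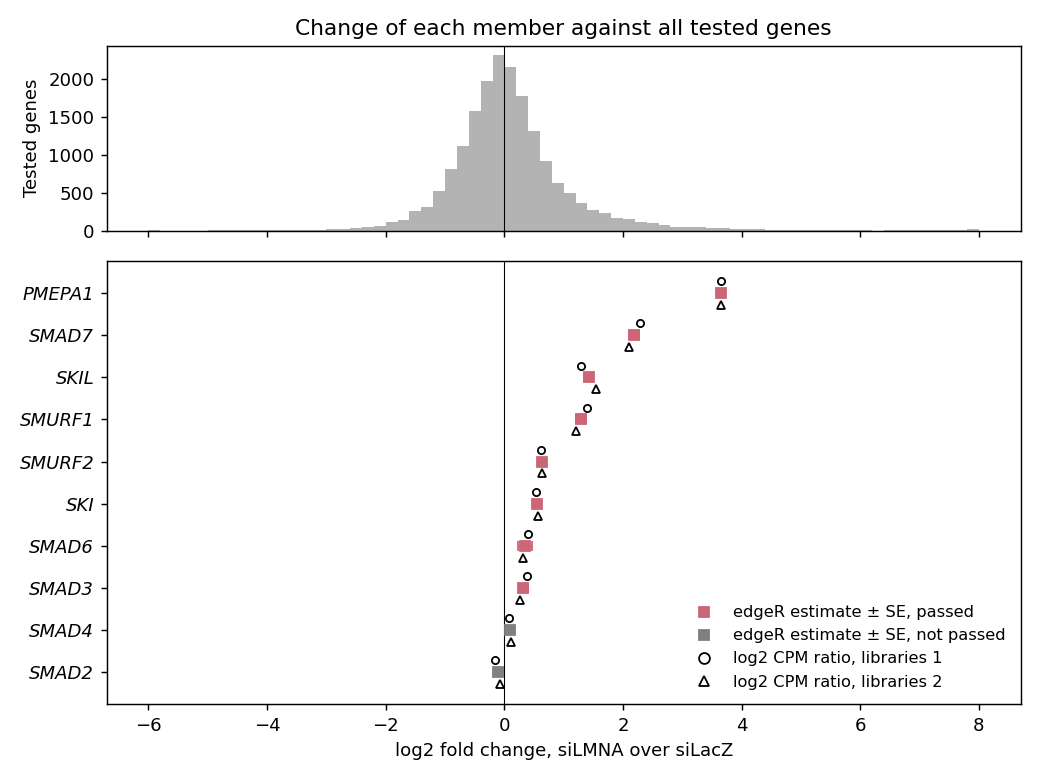
Upper panel, the distribution of log2 fold changes (siLMNA over siLacZ) over all 18540 tested genes, with values beyond the axis drawn at its ends; lower panel, each member's edgeR estimate with its SE, red where it passed, and the log2 CPM ratio of each same-numbered pair of libraries as open symbols. PMEPA1 (3.65) and SMAD7 (2.19) stand in the upper tail, and SMAD4 (0.09) and SMAD2 (-0.10) at the centre.

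In the authors' deposited tables, which compare 1 library with 1, the log2 fold change of PMEPA1 was 3.65 in pair 1 and 3.59 in pair 2, that of SMAD7 2.28 and 2.04, and that of SKIL 1.28 and 1.49. The authors' deposited p-values for PMEPA1 were 0.00109 and 0.00117, and the adjusted p-values in the authors' deposited tables were 0.801 in pair 1 and 0.997 in pair 2. For the other 9 members they were 0.998 in pair 1 and 0.997 in pair 2 in the authors' deposited tables. Those values come from comparisons with no replicates.

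Ratios between related genes within a library do not depend on how libraries are scaled. SMAD7 had 1.26 and 1.39 counts for each SMAD6 count in siLacZ 1 and 2, and 4.69 and 4.78 in siLMNA 1 and 2. This is a difference of 1.84 in the mean log2 ratio. SKIL had 0.690 and 0.637 counts per SKI count in the controls and 1.16 and 1.26 in siLMNA (difference 0.87). The order of the pair's raw counts turned over, but that of their mean levels per length, compared below, did not. SMURF2 had 2.03 and 1.73 counts per SMURF1 count in the controls and 1.18 in both siLMNA libraries (difference -0.67). SMAD3 had 0.563 and 0.584 counts per SMAD2 count in the controls and 0.813 and 0.731 in siLMNA (difference 0.43). The groups did not overlap in any of the 4 ratios, but how often this holds for other gene pairs was not computed. For single genes, the CPM of the groups did not overlap in 76.0% of all tested genes. The exact two-sided permutation test gave p = 0.33 for each ratio (adjusted over the 4 pairs, 0.33), which is the smallest p that 2 against 2 allows.

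**Figure D3:**
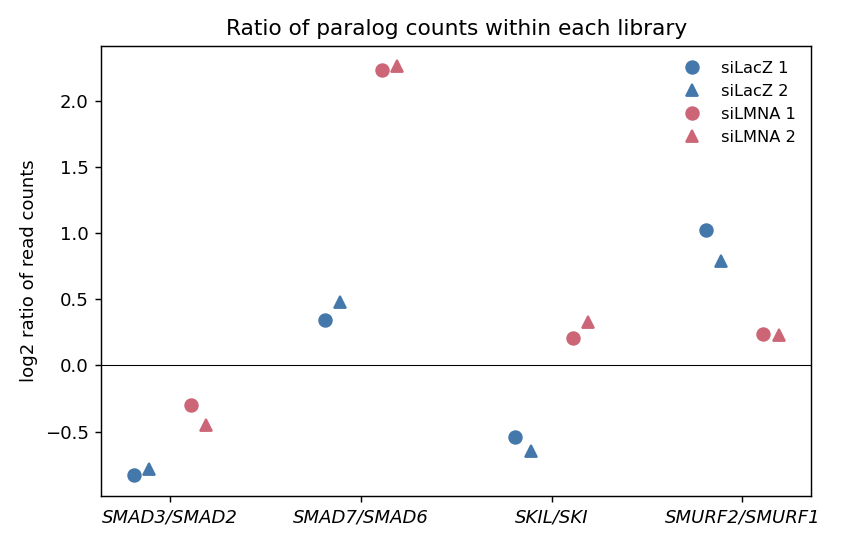
Log2 ratio of raw counts of 2 related genes in each library (pseudocount 0.5), siLacZ in blue and siLMNA in red, circles for library 1 and triangles for library 2. The SMAD7/SMAD6 ratio is the one that moves most, from 0.34 and 0.48 to 2.23 and 2.26.

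Levels of different genes were compared per length, as CPM per kilobase of the longest annotated transcript. In siLacZ, SKI was highest at 18.1 ± 0.255 CPM per kb (SD, n = 2), followed by PMEPA1 at 13.5 ± 0.341, SMURF2 at 11.0 ± 0.176, SMAD3 at 9.40 ± 0.445 and SKIL at 9.36 ± 0.396. SMURF1 (6.07 ± 0.591), SMAD4 (5.99 ± 0.0566), SMAD2 (2.96 ± 0.063), SMAD7 (2.75 ± 0.148) and SMAD6 (1.77 ± 0.0257) came next in CPM per kb. The neighbours SMAD3 and SKIL, and SMURF1 and SMAD4, overlapped over the 2 control libraries. In siLMNA, PMEPA1 was highest at 170 ± 4.6 CPM per kb (SD, n = 2), 58.7% of the sum of the 10 genes against 16.7% in siLacZ. SKI (26.5 ± 0.685) and SKIL (25.1 ± 2.18 CPM per kb) overlapped, and SMAD7, at 12.6 ± 0.456, went from the 9th to the 6th place, above SMAD3 (11.7 ± 0.163). SMAD6 was last again, at 2.26 ± 0.114 CPM per kb. The order depends on the transcript taken: the longest SMAD2 transcript has 34526 bases and those of the other 9 genes 4428 to 8769. With the median length of the basic coding transcripts, 2 of 10 genes kept their place in each group, and PMEPA1 made up 9.58% of the sum in siLacZ and 42.1% in siLMNA. With that median length SMAD7 was above SMAD4 already in siLacZ (9.54 against 6.18 CPM per kb). In siLMNA it stayed below SMAD3 (43.6 against 47.9 CPM per kb). SMAD6 was lowest in both groups and PMEPA1 highest in siLMNA with each of the 3 lengths tried.

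**Figure D4:**
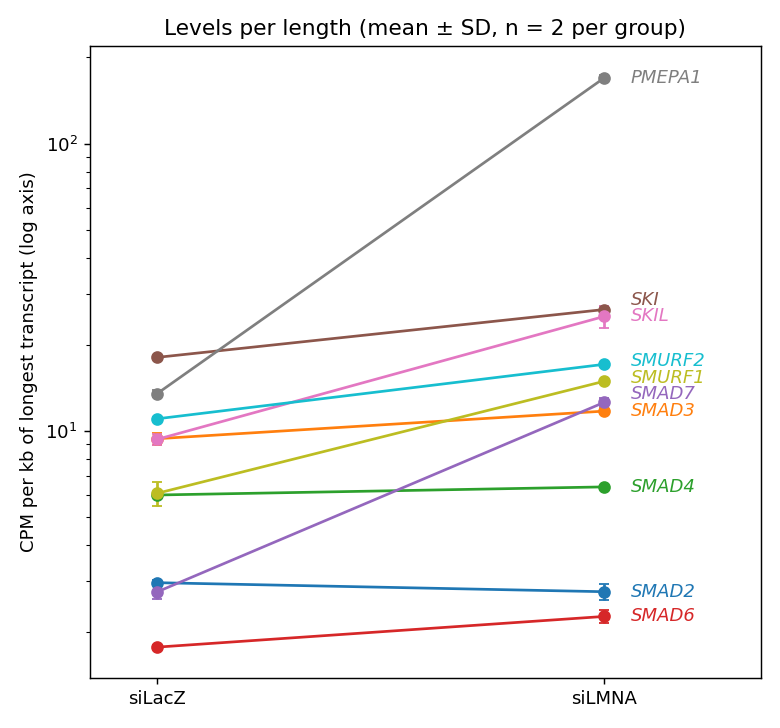
Mean level per length of each member (CPM per kilobase of the longest transcript, log axis) in siLacZ and siLMNA, with the SD over 2 libraries as error bars. PMEPA1 rises from 13.5 to 170 and crosses SKI, and SMAD7 rises from 2.75 to 12.6 and crosses SMAD2, SMAD4 and SMAD3. With the median length of the basic coding transcripts, SMAD7 does not cross SMAD4 or SMAD3.

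Genes on either side of the SMADs in the pathway were read from the same fit. Of 14 tested ligands and receptors (of 15 listed), 8 rose, 4 fell and 2 did not pass, with a median log2 fold change of 0.64. Over all tested genes 26.5% were called higher and 27.8% lower. The ligand genes TGFB2 and INHBA (an activin subunit) rose by 4.11 (SE 0.183) and 3.87 (SE 0.0873) on the log2 scale, and TGFB1 by 0.75 (SE 0.0741), from 37.1 ± 0.683 CPM to 62.6 ± 1.30 CPM (mean and SD of 2 libraries). TGFB2 had a mean of 0.716 CPM in siLacZ and 12.5 CPM in siLMNA, and INHBA 10.6 and 155 CPM. The signalling receptors TGFBR1 and TGFBR2 rose by 1.01 (SE 0.0789) and 0.83 (SE 0.0687), and ACVR1C, a type I receptor for activin-like ligands, by 2.11 (SE 0.249). The mean level of ACVR1C was 0.867 CPM in siLacZ and 3.77 CPM in siLMNA. TGFBR3 (betaglycan, a co-receptor) dropped to 15.8 ± 1.97 CPM from 43.5 ± 2.03 CPM (log2 fold change -1.46, SE 0.0953). TGFB3 (-0.89, SE 0.229) and ACVR2B (-0.51, SE 0.129), an activin type II receptor, also fell; the call on TGFB3 was lost without siLacZ 2 (edgeR adjusted p = 0.0692).

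Of the 3 SMADs that BMP receptors phosphorylate, 0 rose, 2 fell and 1 did not pass. Over all tested genes 26.5% were called higher and 27.8% lower. Of the 3 genes, SMAD9 was at 13.0 and 13.6 CPM in siLacZ and at 6.83 and 6.63 CPM in siLMNA. It fell by 0.98 on the log2 scale (SE 0.119; edgeR adjusted p = 1.86e-06). SMAD1 fell by 0.42 on the log2 scale (SE 0.114), a call lost without siLacZ 2 (edgeR adjusted p = 0.147), and SMAD5 did not pass (-0.11, SE 0.0722; edgeR adjusted p = 0.196). SMAD9 itself can act as an inhibitor in that branch.

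Other feedback inhibitors and decoys moved upward. Of the 8 genes listed, 7 rose, 0 fell and TGIF2, a SMAD corepressor, did not pass (log2 fold change -0.23; unadjusted p = 0.0365). With library totals only, TGIF2 was called lower. The list's median log2 fold change was 1.5, and of all tested genes 26.5% were called higher and 27.8% lower. LDLRAD4, a PMEPA1 relative that also holds SMADs back from the receptor, had 14 and 7 counts in siLacZ 1 and 2 and 155 and 165 in siLMNA 1 and 2 (log2 fold change 4.01, SE 0.337). DCN (decorin, a proteoglycan that binds TGF-beta) was at 160.3 and 163 CPM in siLacZ and at 629 and 639 CPM in siLMNA, a rise of 1.97 on the log2 scale (SE 0.0674). FST (follistatin, which traps activins) rose by 1.73 on the log2 scale (SE 0.160).

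Of 15 ubiquitin ligases and deubiquitinases of the pathway other than the SMURFs, 4 rose, 5 fell and 6 did not pass, none of them by 2-fold or more (median log2 fold change 0.04). These counts are near the background of 26.5% higher and 27.8% lower over all tested genes. The ligase genes WWP1, WWP2 and ITCH, HECT-family relatives of the SMURFs, showed rises of 0.60 (SE 0.0736), 0.29 (SE 0.0772) and 0.28 (SE 0.0763) on the log2 scale. NEDD4L, which targets activated SMAD2 and SMAD3, fell by 0.32 (SE 0.0794), and RNF111 (Arkadia), which degrades SMAD7, SKI and SKIL, did not pass (0.15, SE 0.0784; edgeR adjusted p = 0.117). UCHL5 and USP15, deubiquitinases that act on the receptor complex, had -0.86 (SE 0.0783) and -0.33 (SE 0.0766), and CUL1, a cullin scaffold, had -0.34 (SE 0.0705). With 1 control library left out, several of these small changes lost their call and kept their direction. WWP2 was at 0.23 without siLacZ 1 and at 0.37 without siLacZ 2 (edgeR adjusted p = 0.110 and 0.0512), ITCH at 0.30 and 0.27 (0.092 and 0.125) and USP15 at -0.30 and -0.35 (0.0891 and 0.0792). Without siLacZ 2, NEDD4L was at -0.19 and CUL1 at -0.31 (edgeR adjusted p = 0.167 and 0.058).

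Of 16 adaptors, phosphatases and transport factors, 4 rose, 6 fell and 6 did not pass (median log2 fold change -0.12), again beside 26.5% higher and 27.8% lower over all tested genes. DAB2, an endocytic adaptor of the TGF-beta receptors, rose by 2.01 (SE 0.153), PPP1R15A, which brings a phosphatase to the type I receptor, by 1.18 (SE 0.0952), and CTDSP2, a phosphatase of the SMAD linker, by 0.89 (SE 0.0737) on the log2 scale. CAV1 (caveolin 1, which binds the type I receptor) fell by 0.72 (SE 0.0642), from a mean of 829 CPM to 502 CPM, CTDSPL, a relative of CTDSP2, fell by 0.50 (SE 0.0772), and the fall of IPO8, an importin that carries SMADs, was to 0.724 times the control level (log2 fold change -0.47, SE 0.0718). Of 17 tested nuclear co-factors (of 19), 8 rose, 4 fell and 5 did not pass, with a median of 0.17. ATF3, RUNX2 and JUN, DNA-binding partners of SMAD3, rose by 2.60 (SE 0.169), 2.36 (SE 0.178) and 2.28 (SE 0.079) on the log2 scale. FOS, the partner of JUN in AP-1, fell by 0.98 (SE 0.0818), and SNW1 (SKIP, which binds SKI) and SIN3A, a corepressor scaffold, by 0.45 (SE 0.0718) and 0.28 (SE 0.0777). The call on SIN3A was lost without siLacZ 2 (edgeR adjusted p = 0.198).

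Genes that TGF-beta or SMAD3 is known to act on directly had the highest median of the pathway lists, 2.20. Of 31 tested (of 32), 27 rose and 4 fell, and 24 of the 27 rose at least 2-fold. JUNB, named only because it stands in both lists, is counted as risen here and among the nuclear co-factors. The shares over all tested genes were 26.5% higher, 27.8% lower and 11.3% at least 2-fold higher. FN1 (fibronectin) and PDGFB (a growth factor chain) reached log2 fold changes of 6.68 (SE 0.108) and, for PDGFB, 5.81 (SE 0.134). The mean level of PDGFB was 0.877 CPM in siLacZ and 49.7 CPM in siLMNA. The 4 that fell were ID2 (-1.15, SE 0.0935), MYC (-0.91, SE 0.0752), ID1 (-0.61, SE 0.0665) and ID3 (-0.26, SE 0.0767), of which ID3 is named after its value was seen. MYC and the ID genes are known as targets that TGF-beta lowers in epithelial cells, but its part in these falls was not tested. The call on ID3 was lost without siLacZ 1, siLacZ 2 or siLMNA 2 (edgeR adjusted p = 0.115, 0.219 and 0.166). CDKN2B, a cyclin-dependent kinase inhibitor induced by TGF-beta in many epithelial cells, had 0 counts in all 4 libraries, where 3 counts, the limit that a count of 0 allows, are 0.0634 to 0.0702 CPM. It is named because of that 0. Whether the gene is present in the DNA of these cells was not tested, so the 0 does not describe its response.

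**Figure D5:**
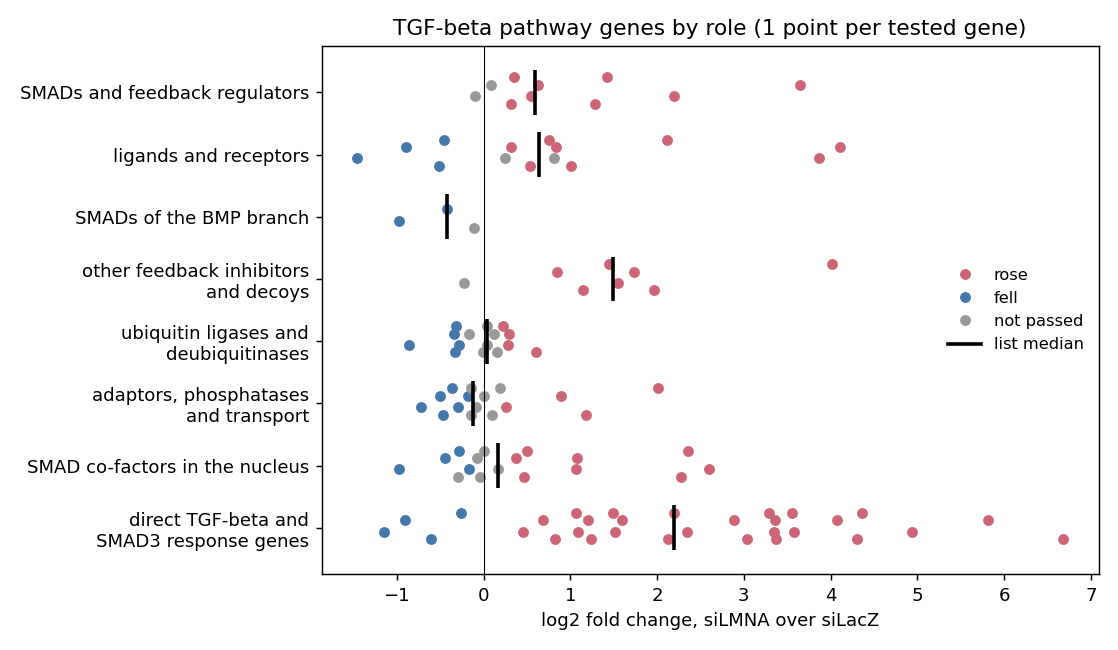
Log2 fold change (siLMNA over siLacZ) of each tested gene, by its role in the TGF-beta pathway, red where it rose, blue where it fell, grey where it did not pass, with a black line at each list's median. The response genes (median 2.20) and the other feedback inhibitors (1.5) lie to the right, and the ligases (0.04) around 0. The 3 BMP-branch SMADs (-0.42, the value of SMAD1) lie to the left.

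Markers were read in the same libraries, where 26.5% of all tested genes were called higher and 27.8% lower. All 10 basal epithelial markers of MCF10A passed the filter, with KRT5 at 5387 to 6154 CPM and TP63 at 78.8 to 97.1 CPM. Of these markers, 8 rose, KRT14 fell (log2 fold change -0.90, SE 0.0614) and KRT5 did not pass. Their summed level was 20380 and 21740 CPM in siLacZ 1 and 2 and 39870 and 37550 CPM in siLMNA 1 and 2. Of 9 luminal markers, 8 were tested, of which 3 rose, 1 fell and 4 did not pass, and their summed level was 1145 to 1147 CPM in siLacZ and 1760.0 to 1865 CPM in siLMNA. The luminal keratin gene KRT8 rose from a mean of 422 CPM to 964 CPM, MUC1 from 381 to 522 CPM, and ESR1 from 0.783 and 0.804 to 1.40 and 1.37 CPM, while EPCAM fell from 84.7 to 52.2 CPM and PGR had 0 counts. Fibroblast markers moved with the group: of 9, 6 were tested and 5 of them rose, with a median log2 fold change of 2.69, and the summed level of the list was 204 to 210.0 CPM in siLacZ and 1046 to 1099 CPM in siLMNA. FAP rose from 28.4 and 31.5 CPM to 279.7 and 332 CPM (log2 fold change 3.35, SE 0.0926), COL1A1 by 3.29 (SE 0.0822), LUM by 2.09 (SE 0.207) and DCN by 1.97 (SE 0.0674) on the log2 scale. PDGFRA went from 2 and 1 counts to 22 and 10 counts, and PDGFRB did not pass. DCN and COL1A1 are also counted above, as a decoy and as a response gene. COL3A1 had 0 counts in every library, THY1 had 0 to 4, and COL1A2 had 0 in the controls and 10 and 20 in siLMNA. Leukocyte markers summed to 25.3 and 25.7 CPM in siLacZ 1 and 2 and to 33.9 and 27.95 CPM in siLMNA 1 and 2. Nearly all of this came from CD14, and CD3E had 0 counts. Of the 6 leukocyte markers 1 was tested, and it rose (log2 fold change 0.28). Of 5 endothelial markers 3 were tested, of which 2 rose and 1 did not pass. Their list summed to 4.83 and 3.98 CPM in siLacZ 1 and 2 and to 7.23 and 6.86 CPM in siLMNA 1 and 2. The part of any of these cell types in the members' changes was not tested.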

How the data were processed

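Poly(A) RNA of 4 MCF10A cultures or repeat libraries was sequenced, per the labels' protocols. Counts are on hg38, per the submitters' processing notes; aligner, counter, annotation and strand setting are not named in labels or headers. The authors deposited 2 tables, each pairing 1 siLacZ with 1 siLMNA library: raw read counts per gene and, per the file headers, normalized counts (a signal, the count rescaled by a factor of its library). The log2 fold changes in the deposited tables come from the authors' comparison of the 2 libraries of a pair. Their p-values, raw and adjusted, were deposited by the authors from that comparison and rest on no replicates. In 6 of 58051 genes, none a member, counts and normalized values disagreed (relative tolerance 1e-06): CCNB1, CDH1, CLDN1, OCLN, TWIST1 and ZEB1, which were left out. Unnamed columns, 3 in all, were not used.

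Differential expression was tested by the quasi-likelihood method of edgeR 4.0.16 (R 4.3.3) on all 4 libraries, using TMM factors and filterByExpr. Group was the sole term, and p-values were adjusted by Benjamini and Hochberg's method over 18540 genes (common biological coefficient of variation 0.0655). An SE is the log2 fold change over the square root of F. The script was tested on simulated data. Floors cover counting error only. Replicates exceeded sampling noise (chi-square over its degrees of freedom: siLacZ 9.29, siLMNA 7.04) and were kept as separate samples. Alternatives were DESeq2 1.42.0, RLE or upper-quartile factors, library totals only, no filter, a minimum change of 1.5-fold, each library left out, a replicate block and the 6 genes kept. Gene models are GENCODE 29, and promoter sequences are RefSeq's. Pathway genes named in the text are up to 3 called genes per list with the largest rise and up to 3 with the largest fall, at a mean of at least 1 CPM, and 8 further genes whatever their values; 1 gene so chosen and 1 marker are not reported here. ITCH has 2 identifiers, of which the 1 with counts was used. The members and lists were chosen with earlier results of these data known, and many pathway genes also stand in lists those results described.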

Additional observations from a re-analysis of the deposited data

How the results depend on the processing

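Of 130 re-computed member values (10 genes under 13 alternatives), 119 kept their direction and their side of the threshold, 9 kept the direction but no longer passed, 1 passed anew and 1 reversed. PMEPA1, SMAD7, SKIL and SMURF1 passed in all 13. The value that reversed was SMAD4 with library totals only (-0.0038), where the median of all tested genes was -0.11; there 1 member fell (SMAD2) and 7 rose. Against a minimum change of 1.5-fold, 4 members rose, and of all tested genes 2111 rose and 1735 fell; in the other pathway lists 7 genes fell, against 25 in the main test. Leaving out 1 library, 6 to 8 members rose and 0 fell. Of all tested genes, 3182 to 4283 then rose and 3121 to 4696 fell, and of the other pathway genes 14 to 24 fell and 50 to 58 rose; the lowest of these counts over all tested genes came without siLacZ 2, and fewer samples were fitted. With the median length of the basic coding transcripts, added after seeing the data, 2 genes kept their place in the order of siLacZ and 2 in that of siLMNA.

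Same-numbered libraries deviated from their group means with a correlation of -0.128 over 10902 genes, and the numbers are not stated to mark a shared culture or day. With the replicate block 8 members rose, and 4870 genes rose and 5093 fell over the table; SMAD7/SMAD6 differed by 1.89 in pair 1 and 1.78 in pair 2. With the crossed pairing, added after seeing the data, 8 members rose, and 5146 genes rose and 5398 fell. With 2 libraries per group, small changes such as those of SMAD2, SMAD4 and SMAD6 are at the limit of what the spread allows to be called.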
